A study of Mus musculus with 37 samples.

Results

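A set of 6 genes called somatic transcripts, Anxa1, Anxa2, S100a6, Cd81, Serpinf1 and Epb41l3, were followed through fibroblast donor cells, embryos made by nuclear transfer (NT), their recipient cells and control embryos of mouse. They were taken by gene symbol on a pair of bead array versions and are 6 of 12377 genes named there. The choice rested on measured values of the same arrays, namely higher levels in fibroblasts and in one or more kinds of transfer embryo than in stage-matched controls, so these differences are given below as a description, with no test. All 6 passed the detection filter on both versions, among 8158 and 7174 genes. Each gene was read by the same probe on both versions, and Epb41l3 had 2 probes.

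Per the labels, tail tip fibroblasts came from agouti 129xB6 F1 mice and served, in interphase, as nuclear donors. Anaphase NT and prometaphase NT embryos were made at those phases of zygotic mitosis and collected at 22 to 24 h (2 samples each, 1 of them with the time in its label). Blastomere NT embryos were taken 14 h after transfer (3 arrays), and oocyte NT embryos, from MII oocytes, after 2 d (2 samples). The donor of the blastomere transfers stands only in the design text, which names tail tip fibroblasts for all recipients. They were set against 2-cell controls (2), 1-cell embryos whose cleavage was inhibited (2), 4-cell controls 14 h after release from a mitotic block (2), a parthenote 2 d after activation (1), M-phase and interphase zygotes (3 each) and MII oocytes (2). Embryos without a genome and embryos made from interphase zygotes with ES cells had 1 array on each version. How many embryos were pooled on an array is not given in the sources used here, and no label ties a sample to a litter or donor, although many are called biological duplicates. The p-values therefore reflect sample-to-sample spread, part of which may be technical.

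The members lie at or near the cell surface or leave the cell. Annexin A1 and annexin A2 bind phospholipid membranes when calcium rises. Annexin A2 pairs with S100a10, and S100a6 (calcyclin) is a small calcium sensor of the same S100 family. Cd81 is a tetraspanin that organises membrane proteins and is also found, with Cd9, on the mouse egg. Epb41l3 (protein 4.1B) ties membrane proteins to the cortical cytoskeleton. Serpinf1, pigment epithelium-derived factor, is a secreted serpin without protease inhibitor activity. As background, mouse embryos degrade much of the oocyte's RNA and switch on their own genome around the 2-cell stage, while a transferred somatic cell brings a nucleus with its own programme and some cytoplasm. Arrays of whole embryos cannot tell RNA carried over with the donor cell from RNA made after transfer, nor fewer cells from less RNA per cell.

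The start regions of Anxa2 and Serpinf1 are shown because these genes stood in places 1 and 3 of 965 fibroblast genes. Their probes were also detected in 2-cell controls. The 965 genes passed limma's adjusted p and lay at least 2 log2 above 2-cell controls in fibroblasts. They were ranked by their difference between prometaphase NT embryos and 2-cell controls. The members were chosen on such contrasts, so high places follow in part from the choice and are not a result. S100a6 stood in place 10, Cd81 in 53, Epb41l3 in 195 and Anxa1 in 348. Both sequences are the 250 bases before the annotated start (RefSeq, GRCm38.p6), on the plus strand of chr9:69453433-69453682 for Anxa2 and the minus strand of chr11:75422624-75422873 for Serpinf1. Capitals mark matches on either strand to the GC box, the TATA box, the CCAAT box and the AP-1 site.
Anxa2: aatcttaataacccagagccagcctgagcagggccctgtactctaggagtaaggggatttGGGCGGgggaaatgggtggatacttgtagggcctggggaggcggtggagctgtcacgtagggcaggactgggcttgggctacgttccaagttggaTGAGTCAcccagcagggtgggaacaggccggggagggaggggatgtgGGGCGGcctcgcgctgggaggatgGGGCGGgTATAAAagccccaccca
Serpinf1: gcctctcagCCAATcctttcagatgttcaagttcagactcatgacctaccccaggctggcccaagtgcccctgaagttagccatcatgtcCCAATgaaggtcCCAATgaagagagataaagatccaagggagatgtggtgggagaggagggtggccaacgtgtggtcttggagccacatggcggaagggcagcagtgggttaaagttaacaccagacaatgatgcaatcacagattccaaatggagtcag
Anxa2 held 3 GC boxes, 1 TATA box downstream of them and 1 AP-1 site, and Serpinf1 held 3 CCAAT boxes and none of the other marked motifs. The GC box was searched as GGGCGG, which 32.7% of 32851 such windows in the reference table held. The TATA box was searched as TATAAA, found in 12.4% of the windows. The CCAAT box, searched by the letters of its name, was found in 33.8%. The AP-1 site was searched as TGANTCA and found in 6.75%. E-boxes, searched as CANNTG, were found in 66.2% and are not in capitals. Cd81 (chr7:143052500-143052749, plus strand) held 3 GC boxes, Anxa1 (chr19:20390672-20390921, minus strand) 1 TATA box and S100a6 (chr3:90612644-90612893, plus strand) 1 CCAAT box. The first of 3 annotated starts of Epb41l3 (chr17:69075427-69075676, plus strand) held 2 GC boxes. Over these first starts, GC content ranged from 46% (Anxa1) to 65.6% (Cd81), against a median of 52.4% over all windows. None of these 4 motifs was present in all 6 genes, counting the first start of Epb41l3.

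The 22 arrays of the first version detected between 18.8 and 45.7% of their probes (deposited detection p below 0.05), and the 15 arrays of the second between 33.8 and 44.0%. The low end was set by genome-less embryo 49 (18.8%) and ES interphase NT 44 (20.8%); all others of that version lay between 30.7 and 45.7%. Anaphase NT 15 and 19 correlated at r = 0.819 across probes, the lowest within a group. Blastomere NT 1 and 3 correlated at r = 0.995, close to the repeat hybridizations of the first version and their nearest samples (0.996 to 0.997), and were counted as 1 sample. A pair of fibroblast samples labelled as duplicates was as close (r = 0.996) and was kept apart. Levels are normalized log2 intensities; levels of the 2 versions were normalized separately, and levels of different probes are not compared with each other. Fibroblasts detected all 19 fibroblast marker genes that passed the filter, and also 14 or 15 of 16 macrophage and leukocyte markers. A gene passed if detected in at least 2 samples, which the fibroblast arrays alone could meet. Both counts thus follow in part from the filter, and nothing on the purity of the donor cells is read from them.

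**Figure D1:**
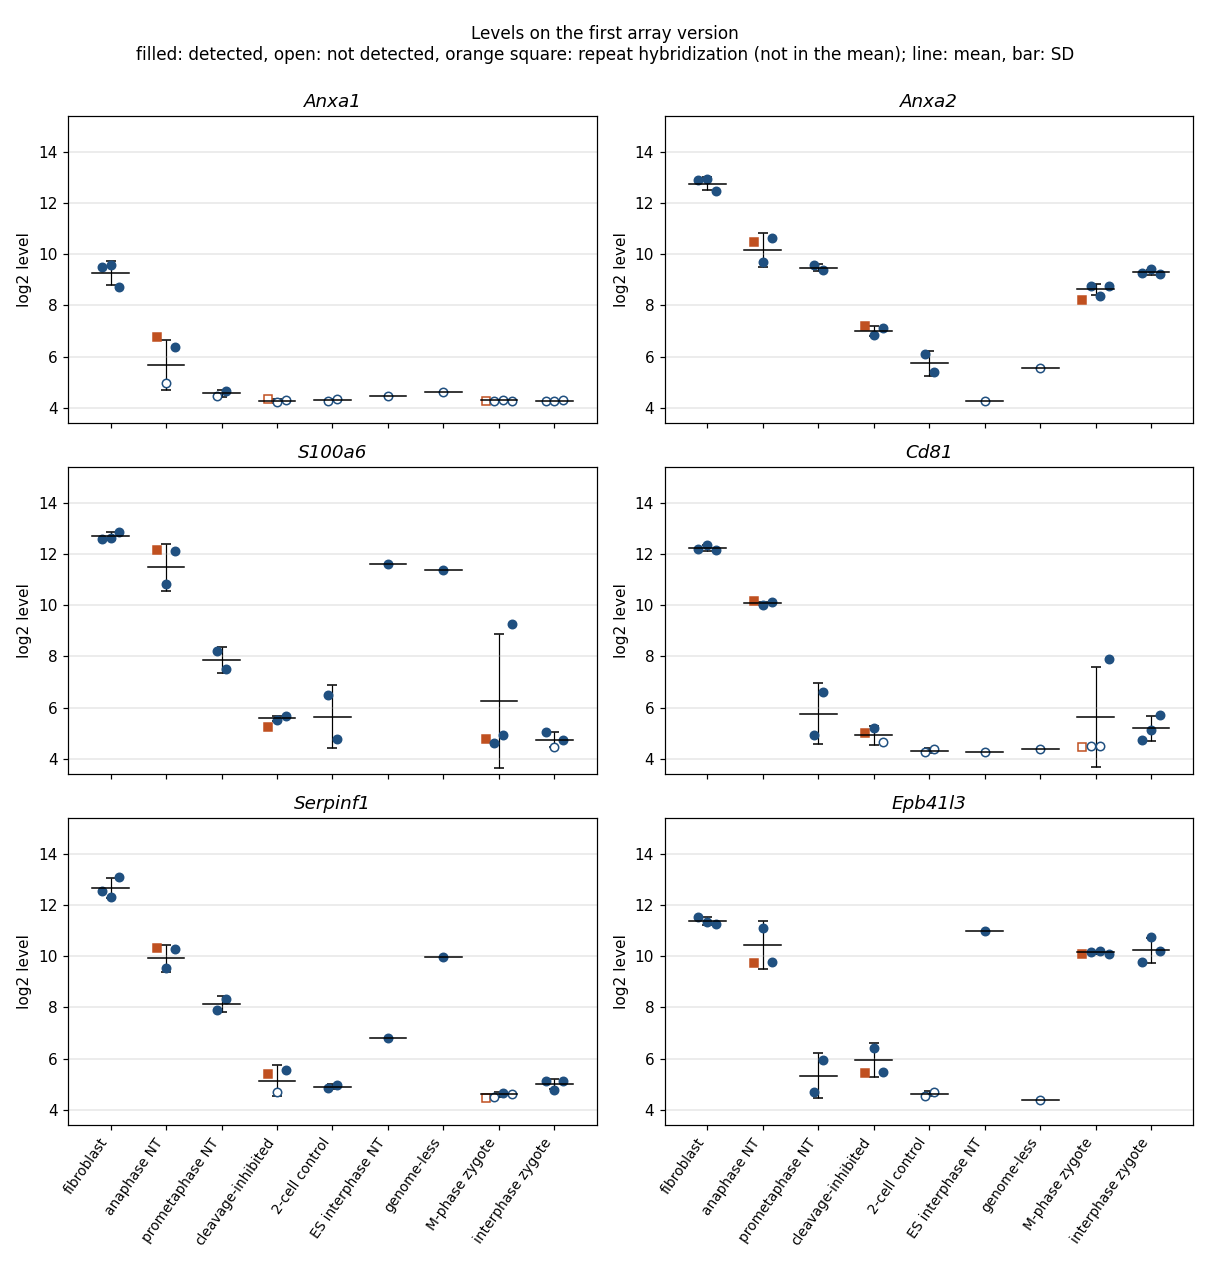
Normalized log2 level of each member on every array of the first version, by group; circles are samples, squares repeat hybridizations, open symbols were not detected, and the line and bar are mean and SD. Fibroblasts stand highest for every member, anaphase NT follows for Anxa1, Anxa2 and Cd81, and Epb41l3 is as high in both zygote groups as in anaphase NT.

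Anxa1 was seen in few embryos. Its log2 level was 9.49, 9.58 and 8.74 in fibroblasts 1, 2 and 8, 4.98 and 6.37 in anaphase NT 15 and 19, 4.47 and 4.67 in prometaphase NT 27 and 28, and 4.26 and 4.33 in 2-cell controls 22 and 23. Of these embryos only anaphase NT 19, at 6.78 in the presumed repeat, and prometaphase NT 28 detected it. On the second version it was 7.24, 9.47 and 7.44 in blastomere NT 1, 2 and 3, and was not detected in oocyte NT embryos, 4-cell controls, the parthenote or MII oocytes. Blastomere NT was thus the single transfer type in which every array detected Anxa1. Fibroblasts stood at least 24.0-fold above 2-cell controls, anaphase NT at least 1.99-fold above them and blastomere NT at least 5.13-fold above 4-cell controls, each bound taken against the lowest detected signal. Single arrays carried the bounds in embryos, which were 1.23-fold without anaphase NT 19 and 2.45-fold without blastomere NT 2.

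Anxa2 was raised over stage-matched controls in 3 transfer types. It had a log2 level of 12.89, 12.93 and 12.48 in fibroblasts, 9.70 and 10.65 in anaphase NT, 9.58 and 9.39 in prometaphase NT, and 6.09 and 5.39 in 2-cell controls. The differences to 2-cell controls were 7.03 ± 0.30 in fibroblasts, 4.44 ± 0.33 in anaphase NT and 3.75 ± 0.33 in prometaphase NT (log2 ± SE). Zygotes also carried Anxa2, at 8.37, 8.76 and 8.76 in M phase and 9.28, 9.41 and 9.22 in interphase, so that the difference of prometaphase NT to M-phase zygotes was 0.85 ± 0.30 and that of anaphase NT 1.55 ± 0.30. Levels were 13.86, 13.95 and 13.73 in blastomere NT, 12.61 and 11.31 in oocyte NT, 10.04 and 10.37 in 4-cell controls, 9.78 in the parthenote, and 11.83 and 11.46 in MII oocytes. Blastomere NT lay 3.67 ± 0.46 above 4-cell controls. Oocyte NT overlapped MII oocytes (0.31 ± 0.46, and -0.34 without oocyte NT 1) and lay 2.18 ± 0.57 above the parthenote, which is 1 array. ES interphase NT, the transfer with ES cells, did not detect Anxa2 on either version (4.26 and 6.16).

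S100a6 was high in anaphase NT and also in embryos that received no somatic nucleus. Its log2 level was 12.59, 12.65 and 12.88 in fibroblasts, 10.84 and 12.14 in anaphase NT, 8.21 and 7.51 in prometaphase NT, and 6.51 and 4.78 in 2-cell controls. Genome-less embryos read 11.37 on the first version, on the array of lowest detection (18.8%), and 11.54 on the second. That 11.37 came from an unnormalized intensity of 271, beside 301 in prometaphase NT 27, which read 8.21. ES interphase NT read 11.61 on the first, on an array of low detection, and was not detected on the second (5.40). Among M-phase zygotes, replicate 26 stood at 9.26 beside 4.91 and 4.60. Anaphase NT exceeded 2-cell controls by 5.85 ± 1.13 and prometaphase NT by 2.22 ± 1.13. Blastomere NT read 9.09, 10.34 and 8.85, against 6.95 and 6.67 in 4-cell controls (2.85 ± 0.76). Oocyte NT read 8.42 and 8.07, overlapping MII oocytes (6.10, not detected, and 8.14).

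Like every member, Cd81 was higher in anaphase NT than in prometaphase NT without overlap. Its log2 level was 12.19, 12.36 and 12.18 in fibroblasts, 10.03 and 10.13 in anaphase NT, 4.93 and 6.60 in prometaphase NT, and 4.25 and 4.38, not detected, in 2-cell controls. Anaphase NT was at least 42.0-fold and prometaphase NT at least 2.12-fold above 2-cell controls (1.19-fold without prometaphase NT 28), and anaphase NT lay 4.31 ± 0.88 above prometaphase NT on the log2 scale. M-phase zygote 26, high for S100a6, was also the single M-phase zygote to detect Cd81 (7.89). On the second version Cd81 was 10.01, 14.14 and 10.17 in blastomere NT, 11.90 and 11.38 in oocyte NT, 5.90 and 6.17 in 4-cell controls, 7.27 in the parthenote, and 10.04 and 10.43 in MII oocytes. Blastomere NT exceeded 4-cell controls by 6.08 ± 0.98 and by 4.05 without blastomere NT 2, which alone read above 14. Oocyte NT lay above MII oocytes without overlap (1.40 ± 0.98) and above the parthenote (4.37 ± 1.20).

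Epb41l3, alone among the members, was as high in zygotes without a donor nucleus as in anaphase NT. Its log2 level was 11.55, 11.33 and 11.25 in fibroblasts, 11.10 and 9.76 in anaphase NT, 4.70 and 5.94 in prometaphase NT, and 4.55 and 4.70, not detected, in 2-cell controls. M-phase zygotes read 10.21, 10.17 and 10.09 and interphase zygotes 9.77, 10.75 and 10.19, all without a transferred nucleus. Anaphase NT was therefore at least 53.7-fold above 2-cell controls (33.8-fold without anaphase NT 15) but overlapped M-phase zygotes (0.27 ± 0.44), while prometaphase NT lay 4.84 ± 0.44 below M-phase zygotes and overlapped 2-cell controls. On the second version it read 6.65, 8.48 and 6.83 in blastomere NT, 8.66 and 7.70 in oocyte NT, 5.84 and 5.97, not detected, in 4-cell controls, 7.80 in the parthenote, and 12.08 and 11.34 in MII oocytes. Blastomere NT was at least 2.96-fold above 4-cell controls, or 1.62-fold without blastomere NT 2, and oocyte NT fell by 3.53 ± 0.62 relative to MII oocytes. The second probe of Epb41l3 was not detected in fibroblasts or any anaphase NT array and stayed near background on the first version, so the values rest on 1 probe.

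Serpinf1, like Anxa2, S100a6 and Cd81, kept the order fibroblasts, anaphase NT, prometaphase NT, 2-cell controls without overlap. Its log2 level was 12.57, 12.32 and 13.10 in fibroblasts, 9.53 and 10.30 in anaphase NT, 7.91 and 8.35 in prometaphase NT, and 4.83 and 4.96 in 2-cell controls. It was low in M-phase zygotes (4.67, 4.49 and 4.63) and interphase zygotes (5.11, 4.77 and 5.11), and not detected in MII oocytes. Anaphase NT exceeded 2-cell controls by 5.02 ± 0.36 and prometaphase NT by 3.23 ± 0.36. Against M-phase zygotes the differences were 5.32 ± 0.33 and 3.54 ± 0.33. Genome-less embryo 49, the array of lowest detection, read 9.97 from an unnormalized intensity of 82, beside 240 in prometaphase NT 27 (7.91). The genome-less array of the second version did not detect Serpinf1 (5.46). Blastomere NT read 6.27, 9.64 and 6.74, at least 4.09-fold above 4-cell controls, which did not detect it, and without blastomere NT 2 this bound was 1.38-fold. Oocyte NT (6.49 and 6.02) stood at the level of the parthenote (6.54).

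**Figure D2:**
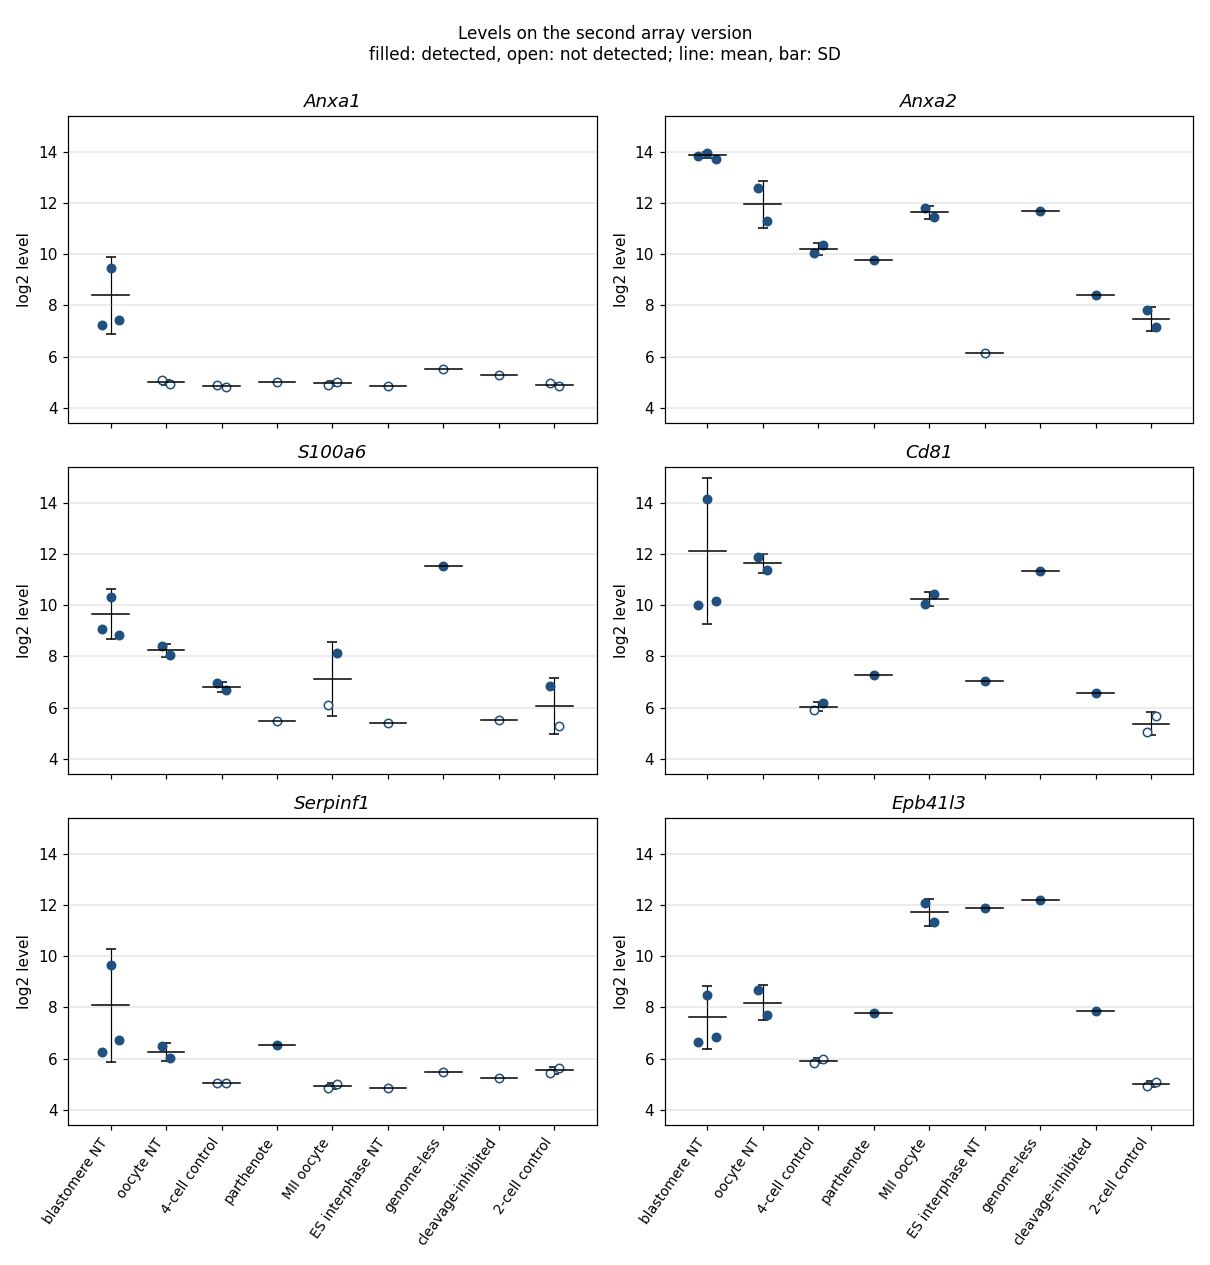
Normalized log2 level of each member on every array of the second version, by group; open symbols were not detected, and the line and bar are mean and SD, with blastomere NT 1 and 3 averaged first. Blastomere NT 2 has the highest level of the 3 blastomere NT arrays for all 6 members, and Anxa2, Cd81 and Epb41l3 are high in MII oocytes.

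Every member but Anxa1 was also detected in cells or embryos without a somatic nucleus. Epb41l3 and Anxa2 were present in zygotes, and these and Cd81 in MII oocytes. S100a6 was high in genome-less embryos on both versions, 1 array each. It read 5.05, 4.46 (not detected) and 4.73 in interphase zygotes, and 4.91, 4.60 and 9.26 in M-phase zygotes. MII oocytes read 6.10 (not detected) and 8.14 for S100a6, and the parthenote did not detect it (5.46). Serpinf1 was detected in all 3 interphase zygotes and both 2-cell controls at low levels, in the parthenote (6.54) and, at 9.97, in genome-less embryo 49, but not in MII oocytes. The data thus go against the label somatic for Anxa2, Cd81 and Epb41l3. For S100a6 the readings without a somatic nucleus were mixed, and no verdict is given. In the groups named for it above, Serpinf1 stood within the range of lowest detected signals (4.47 to 6.53 and 5.78 to 6.58 by version). The exception was genome-less embryo 49, the array of lowest detection. Of the 965 fibroblast genes, 429 were detected on every M-phase zygote array. The matching share over all genes tested was not counted, so nothing particular to fibroblast genes is read from this number. On the second version the genome-less array also read 11.71 for Anxa2, 11.35 for Cd81 and 12.21 for Epb41l3, while the low-detection array of the first version did not detect these 3 genes. The labels do not say whether the 2 genome-less arrays hold the same sample.

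**Figure D3:**
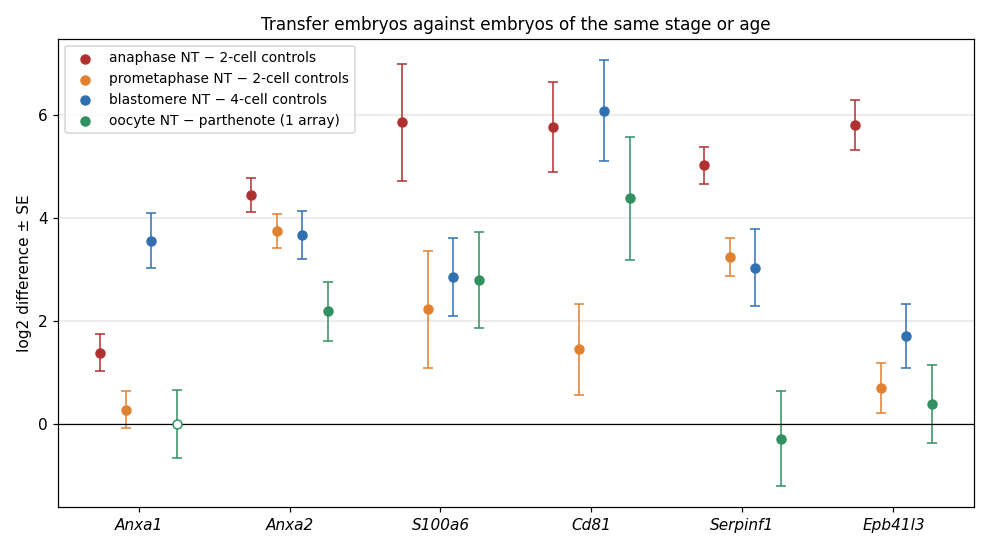
Log2 difference ± SE of each member between transfer embryos and controls of the same stage or age, 1 colour per transfer type; the open point marks a gene detected in neither group. Across the 4 transfers drawn, Anxa2 lies between 2.18 (against the single parthenote) and 4.44, whereas Epb41l3 spreads from 0.38 to 5.80. Transfers with ES cells are not drawn.

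Counted over the set, all 6 members lay above 2-cell controls without overlap in fibroblasts, as did 37.3% of all genes tested. The same held for all 6 in anaphase NT, against 30.1% of all genes, and for 5 of 6 in prometaphase NT (all but Epb41l3), against 23.0%. That count includes Anxa1, whose prometaphase NT mean was no higher than the lowest detected signal of the 2-cell controls, so its order carries no weight. In blastomere NT all 6 lay above 4-cell controls without overlap, against 25.4% of all genes. In oocyte NT 2 of 6 lay above MII oocytes (Cd81 and Serpinf1) and 1 below (Epb41l3), close to the shares of all genes, 36.7% above and 38.5% below. Serpinf1 there had a mean no higher than the lowest detected signal of the MII oocytes, which did not detect it. By limma's adjusted p, 17.1% of all genes tested were called higher in anaphase NT and 18.5% lower. In prometaphase NT 1.62% were higher and 0.515% lower, in blastomere NT 2.08% higher and 0.739% lower, and in oocyte NT 26.0% higher and 26.4% lower. Nothing is read from these shares for the members, which were chosen on the same contrasts. Median member differences were 5.39 in anaphase NT, 1.83 in prometaphase NT, 3.29 in blastomere NT and 0.72 in oocyte NT, beside medians of 0.04, -0.01, -0.03 and -0.06 over all genes tested. With 75th percentile scaling the oocyte NT median was 0.0042, beside -0.75 over all genes. The anaphase and prometaphase comparisons share the 2-cell controls.

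Relative to the donor cells, every member was lower without overlap after both zygote transfers, as were 37.5% of all genes in anaphase NT and 37.2% in prometaphase NT. Anaphase NT lay below fibroblasts by as little as -0.95 ± 0.44 (Epb41l3) and -1.22 ± 1.03 (S100a6) and by as much as -3.60 ± 0.33 (Anxa1). Prometaphase NT differed from fibroblasts by -3.28 ± 0.30 for Anxa2, the smallest gap, and by -6.48 ± 0.80 for Cd81, the largest. Anaphase NT exceeded prometaphase NT without overlap for all 6, as it did for 34.5% of all genes, by 0.69 ± 0.33 for Anxa2 and by 5.11 ± 0.48 for Epb41l3. Anxa2 was thus the member whose level differed least between these transfers.

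**Figure D4:**
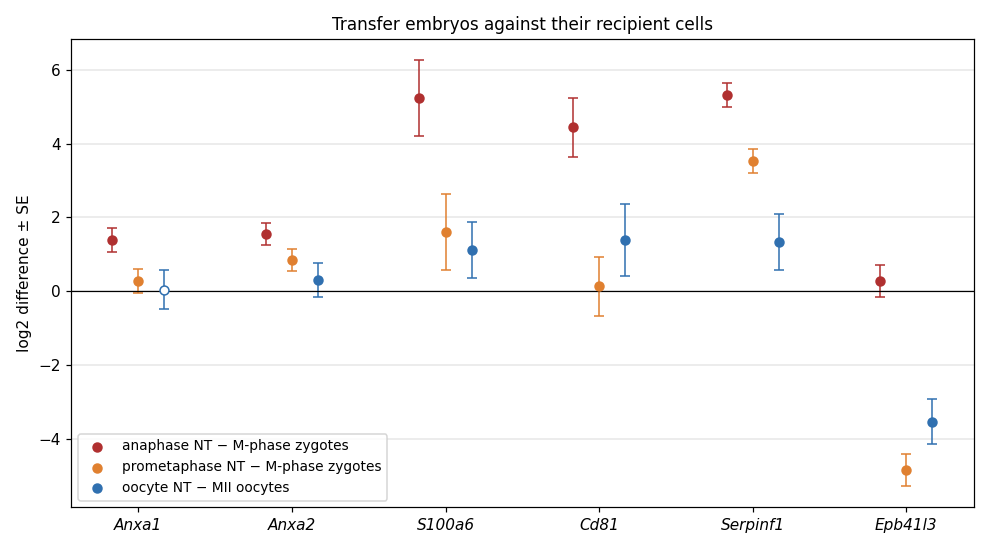
Log2 difference ± SE of each member between transfer embryos and their recipient cells, with the open point for a gene detected in neither group. Serpinf1 lies 5.32 and 3.54 above M-phase zygotes, and Epb41l3 lies near 0 in anaphase NT and below 0 in prometaphase NT and oocyte NT.

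Comparisons without a transfer, which did not serve to choose the members, were tested with limma over all genes, although the 2-cell and 4-cell controls in them also entered the choice. Choosing members above these controls favoured low control values, which tilts the comparisons that use them toward lower controls. Their p-values for members are therefore not free of the choice. Over the normal cell cycle from M-phase zygote to 2-cell embryo, Anxa2 and Epb41l3 fell and 4 members did not pass. Anxa2 changed by -2.89 ± 0.30 (limma adjusted p = 4.00e-06), lower in both 2-cell controls than in all 3 zygotes. Epb41l3 changed by -5.53 ± 0.44 (limma adjusted p = 4.37e-07) and was at least 44.4-fold lower, while its second, dim probe did not pass (-0.15, limma adjusted p = 0.434). Of all genes tested 20.4% were called higher and 21.9% lower. In 4-cell controls against MII oocytes, Anxa2 (-1.44 ± 0.46, limma adjusted p = 0.0218), Cd81 (-4.20 ± 0.98, limma adjusted p = 0.00370) and Epb41l3 (-5.81 ± 0.62, limma adjusted p = 1.70e-05; at least 50.9-fold lower) fell and 3 did not pass, with 26.5% of all genes higher and 26.8% lower. The call of Anxa2 there was lost without 4-cell control 1 or 2 or MII oocyte 1 (adjusted p from 0.0612 to 0.126 by limma).

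Neither zygotic phase nor inhibited cleavage moved a member past the threshold. M-phase and interphase zygotes gave 0 calls by limma, and 1 member (Anxa2, -0.67 ± 0.27, limma adjusted p = 0.237) had an unadjusted p below 0.05; of all genes 1.69% were higher and 1.05% lower. S100a6 differed by 1.51 ± 0.92 and by 0.0045 without M-phase zygote 26, which alone was high. Cleavage-inhibited embryos against 2-cell controls gave 0 calls by limma as well, with 2 members at an unadjusted p below 0.05, and 0.123% of all genes higher and 0.110% lower. Those members were Anxa2 (6.85 and 7.13 in cleavage-inhibited embryos; difference 1.25 ± 0.33, limma adjusted p = 0.218) and Epb41l3 (6.40 and 5.48; difference 1.31 ± 0.48, limma adjusted p = 0.569). Both cleavage-inhibited samples stood above both 2-cell controls for each.

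After each of the 4 transfers, most relatives and binding partners of the members did not pass the test. Of 37 such genes tested on the first version, 7 were higher and 3 lower in anaphase NT than in 2-cell controls and 27 did not pass, beside 17.1% higher and 18.5% lower over all genes. Their median was 0.30 beside 0.04 over all genes. Anxa5 rose by 3.80 ± 0.40 (limma adjusted p = 8.72e-06). S100a10, the partner of annexin A2, rose by 3.54 ± 0.46 (limma adjusted p = 4.89e-05), as did the fibroblast gene S100a4 (at least 4.53-fold) and the interferon-induced membrane gene Ifitm3 (3.27 ± 0.36). Serpina3n (at least 4.17-fold) and Serpinf2 (1.23 ± 0.22), both serpins, were higher, and so was Ahnak, which is named here after its values were seen (1.99, limma adjusted p = 0.0252). S100a3 (at least 2.02-fold) and the S100a6-binding partners Sugt1 (-2.85 ± 0.63) and Cacybp (-2.14 ± 0.51) were lower. None of 10 tetraspanins and none of 2 band 4.1 genes passed. By list, 1 of 3 annexins, 2 of 5 S100 genes, 2 of 7 serpins and 3 of 11 partners were higher, with medians of 0.59, 0.85, 0.16 and 0.46, and of -0.01 for tetraspanins and 0.51 for band 4.1 genes. With only these 2 groups in the fit, 3 genes passed in place of 10. S100a10 stands in both the S100 and the partner list.

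In prometaphase NT 0 of 37 passed by limma, and 2 (Tspan14 and Plxdc1) had an unadjusted p below 0.05. List medians lay between -0.06 (serpins) and 0.52 (S100 genes). In blastomere NT 5 of 26 were higher and 1 lower than in 4-cell controls, beside 2.08% and 0.739% of all genes. S100a10 rose by 4.37 ± 0.76 (limma adjusted p = 0.0137), S100a3 by 3.90 ± 0.56 (limma adjusted p = 0.00594), Anxa5 at least 9.95-fold, Ifitm3 by 3.25 ± 0.71 and the tetraspanin Cd82 at least 1.85-fold, while Tspan14 fell by 2.11 ± 0.49. These calls depended on single arrays: 1 of the family genes passed without blastomere NT 2 and 0 without either 4-cell control. Medians were 1.48 for 3 annexins, 3.90 for 3 S100 genes, -0.72 for 8 tetraspanins, 0.52 for 5 serpins and 0.13 for 8 partners. In oocyte NT 5 of 26 were higher and 4 lower than in MII oocytes, below the 26.0% and 26.4% of all genes. S100a3 (at least 3.80-fold), S100a10 (at least 4.06-fold), Serpinf2 (at least 1.32-fold) and Sugt1 (2.66 ± 0.57) rose, while Ifitm3 (-4.11 ± 0.71), Tspan33 (-3.73 ± 0.59) and Tspan14 (-3.27 ± 0.49) fell. Cacybp was higher and Tspan3 lower too, both named here after their values were seen. Medians were 0.18, 2.92, -0.65, -0.61 and 0.03 for annexins, S100 genes, tetraspanins, serpins and partners. No band 4.1 gene besides Epb41l3 passed the detection filter on the second version.

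**Figure D5:**
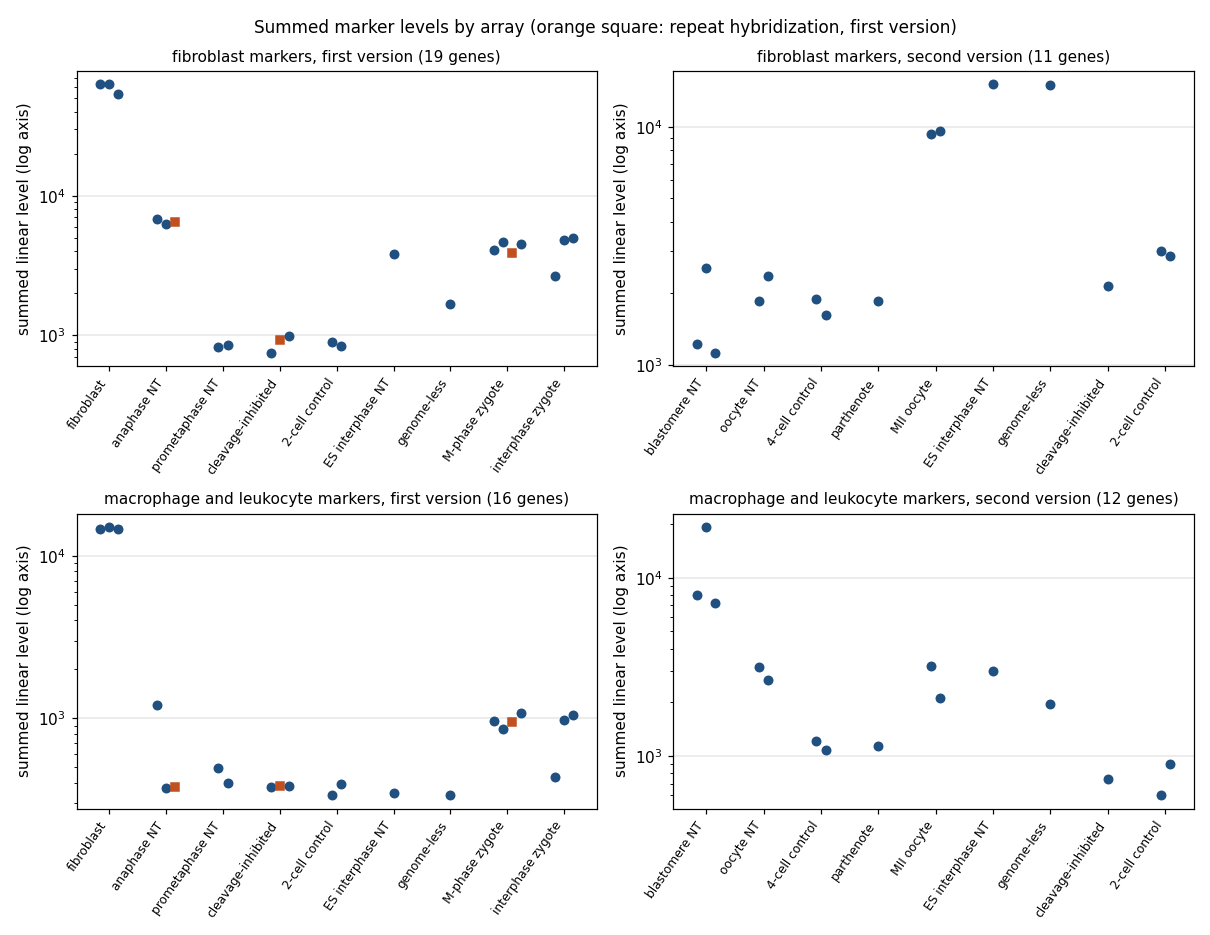
Summed normalized linear level of the fibroblast and the macrophage and leukocyte markers on every array of both versions, on a log axis; squares are repeat hybridizations. Anaphase NT stands above 2-cell controls for fibroblast markers, and blastomere NT above 4-cell controls for macrophage and leukocyte markers.

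Cell type markers differed by transfer type, and their part in the results was not tested. Over all genes tested, 17.1% were called higher and 18.5% lower in anaphase NT, and 1.62% and 0.515% in prometaphase NT. These shares were 2.08% and 0.739% in blastomere NT and 26.0% and 26.4% in oocyte NT. In anaphase NT 12 of 19 fibroblast markers were higher than in 2-cell controls (median 1.61), with sums of 6259 to 6864 in anaphase NT against 836 to 895 in 2-cell controls. M-phase zygotes, however, summed to 4083 to 4639. In prometaphase NT 3 of 19 were higher, and the sums (826 and 858) were close to those of the 2-cell controls. Of macrophage and leukocyte markers 0 of 16 were higher and 1 lower in anaphase NT, and 0 of 16 passed in prometaphase NT. In blastomere NT 0 of 11 fibroblast markers were higher and 1 was lower, while 6 of 12 macrophage and leukocyte markers were higher (median 2.14). Their sums were 7979, 19265 and 7178 in blastomere NT 1, 2 and 3, against 1211 and 1084 in 4-cell controls. Of the 12, blastomere NT arrays detected 9 or 10, against 1 or 2 in 4-cell controls. Blastomere NT 2, highest for all 6 members, had the highest sum too. These 12, of 16 on the array, had passed the filter of detection in at least 2 samples. Detection in blastomere NT alone could meet that filter, so the counts of these markers there partly follow from it. Lyz2 (8.12, 8.85 and 8.12), Adgre1 (7.86, 8.04 and 7.81) and C1qb (8.10, 9.35 and 8.36) were detected on every blastomere NT array and in neither 4-cell control, whereas Cd48 was detected on none of these 5 arrays. The fibroblast genes Dcn (5.68, not detected, 9.45 and 6.12) and Thy1 (6.07, 8.54 and 6.11) were highest on blastomere NT 2. Fibroblast marker sums were 1230, 2559 and 1130 in blastomere NT 1, 2 and 3, against 1896 and 1622 in 4-cell controls. Blastomere NT 1 and 3 thus lay below both controls.

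In oocyte NT 0 of 11 fibroblast markers were higher and 5 lower than in MII oocytes, beside 26.0% and 26.4% of all genes. Of 12 macrophage and leukocyte markers 1 was higher and 1 lower there. Oocyte NT 1 detected 8 of these 12 and oocyte NT 2 detected 2. The marker lists are short, and nothing is read from counts below that lie near the shares of all genes. Oocyte markers were higher for 7 of 11 and lower for 1 in anaphase NT, lower for 1 of 11 in prometaphase NT, higher for 1 of 11 in blastomere NT and lower for 9 of 11 in oocyte NT. Markers of the 2-cell and cleavage embryo were lower for 12 of 13 and higher for 1 in anaphase NT, lower for 1 of 13 in prometaphase NT and 2 of 13 in blastomere NT, and higher for 10 of 13 and lower for 1 in oocyte NT. ES cell markers passed for 1 of 7 (lower) in anaphase NT, 0 of 7 in prometaphase NT, 0 of 9 in blastomere NT and 3 higher and 1 lower of 9 in oocyte NT. Cumulus and granulosa cell markers were higher for 1 and lower for 1 of 8 in anaphase NT, 0 of 8 in prometaphase NT and 0 of 4 in blastomere NT, and higher for 2 of 4 in oocyte NT. Endothelial markers had 1 of 7 higher and 1 lower in each of anaphase and prometaphase NT, 0 in blastomere NT and 1 higher in oocyte NT. Of 2 or 3 keratinocyte markers 1 was higher and 1 lower in oocyte NT and none elsewhere, and of 2 muscle markers 1 was higher in anaphase NT and 1 in blastomere NT.

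Across the 9 group means of the first version the members did not follow a single pattern. Pearson's r between members ran from 0.15 (S100a6 and Anxa2) to 0.90 (Cd81 and Anxa1), and Epb41l3 reached no more than 0.54 with any other. The points share arrays, and fibroblasts are the highest point for each gene. Among 4515 genes whose group means varied by an SD of at least 1 log2, those most like Anxa1 were Mmp11, Marcks and Col3a1 (r = 0.999, 0.998 and 0.997), and those most like Cd81 were Cacna2d1, Gstm2 and Dcn (0.991, 0.989 and 0.988). For Serpinf1 they were Gpx7, Emb and Arhgef25 (0.959, 0.957 and 0.947). Less close were the nearest genes of S100a6, Cul7, Maged1 and Cuedc1 (0.942, 0.941 and 0.938), and of Anxa2, Denn2b, Dnajc5 and Klf6 (0.937, 0.936 and 0.924). Epb41l3 was nearest to Plekha2, Emp2 and St6gal1 (0.978, 0.957 and 0.954).

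Slides offered some checks within a batch. No numbered anaphase NT sample shared a slide with a 2-cell control, but the anaphase NT repeat was on slide 3 beside both controls and gave a median member difference of 5.28. All prometaphase NT arrays lay on slide 3 with the 2-cell controls, and both oocyte NT and both MII arrays on slide 6. Blastomere NT against the 4-cell control on slide 7 alone gave a median of 2.99. Fibroblasts and 2-cell controls shared no slide.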

How the data were processed

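Single-colour bead arrays of 37 hybridizations on 8 slides were used. The deposited tables held an average bead intensity per probe, not normalized between arrays, with a detection p-value beside it, per the file headers; GenomeStudio (version not given) is named in the submitters' processing notes. The deposited series matrix held linear intensities for 16075 probes, some negative, and served as an alternative. Each column was a straight-line transform of that array's table, except for the cleavage-inhibited repeat of the first version (r = 0.996). Per the labels' protocols, RNA came from a PicoPure kit and was amplified with an Illumina TotalPrep kit, which adds amplification error to small inputs.

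The function neqc (limma 3.58.1, R 4.3.3) was run separately for the array versions: background correction by normexp with negative controls inferred from the detection p, an offset of 16, quantile normalization and log2. Probes detected at p below 0.05 in at least 2 samples and with 1 gene symbol were kept (14898 of 24613 and 15052 of 25697 probes had a symbol; 14890 and 15043 were matched by gene identifier to RefSeq), and the brightest probe stood for a gene. The 3 first-version repeats stayed outside the fit, and the best-correlated sample of the group was taken as the partner of each. A group-means model was fitted to 19 and 14 samples (10 and 5 residual degrees of freedom) with eBayes and a mean-variance trend. The threshold was an adjusted p of 0.05 (Benjamini-Hochberg over all genes, two-sided). The slide of 4-cell control 2 was taken from its description, since its title names a position held by an oocyte NT array. Bounds ("at least N-fold") set the higher group's mean against, per array, the lowest detected signal or the probe's own. The few arrays per group limit precision.

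The members, gene lists, named-gene rule and alternatives were chosen with earlier results of these data known. Named were every member, up to 2 genes per family list, direction and transfer among those past the threshold, free of overlap between groups and detected throughout the higher group, 3 genes most like each member, and markers. Lists were annexins, S100 genes, tetraspanins, serpins, band 4.1 genes, partners of the members, and markers of fibroblasts, macrophages and leukocytes, cumulus and granulosa cells, keratinocytes, endothelium, muscle, oocytes, 2-cell and cleavage embryos and ES cells. The model was tested on simulated data. Alternatives were no background correction, 75th percentile scaling, deposited matrix values, dropping the detection filter, testing each probe separately, a fit of the compared groups alone, slide as a random block, averaged repeats, 3 blastomere NT samples and leaving out each replicate.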

Additional observations from a re-analysis of the deposited data

Results flagged for a closer look

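Epb41l3 lay on opposite sides of its references after a pair of transfers on the second version. Both blastomere NT samples lay above the mean of the 4-cell controls (log2 difference 1.70, and 0.83 without blastomere NT 2), but these controls did not detect the probe, so only the bound of at least 2.96-fold (1.62-fold without blastomere NT 2) can be given. Both oocyte NT samples lay below the mean of the MII oocytes (log2 difference -3.53), which read 12.08 and 11.34. The references differ in stage, and the difference between the transfers was not tested.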

How the results depend on the processing

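No median member difference over a transfer or fibroblast comparison and no value past the threshold changed sign under the alternatives run. Small differences of single members that did not pass or were not tested did. Examples are Anxa2 in oocyte NT against MII oocytes (0.31, and -0.34 without oocyte NT 1), S100a6 in 2-cell controls against M-phase zygotes (-0.62, and 0.89 without M-phase zygote 26) and Cd81 in M-phase against interphase zygotes (0.45, and -0.68 without M-phase zygote 26). Without background correction the medians were 6.41 (fibroblasts), 4.18 (anaphase NT), 1.23 (prometaphase NT) and 1.76 (blastomere NT), with 75th percentile scaling 6.26 (fibroblasts), 4.85 (anaphase NT) and 0.0042 (oocyte NT, 0.72 otherwise), and with series matrix values 7.62 (fibroblasts), 6.30 (anaphase NT) and 2.69 (prometaphase NT). The 75th percentile also moved the median of all genes, to -0.91 in fibroblasts, 0.20 in anaphase NT and -0.75 in oocyte NT, and series matrix values moved it to 0.39 in oocyte NT. The cause was not tested. Leaving out single replicates gave medians of 6.75 to 7.54 (fibroblasts), 4.91 (without anaphase NT 19) to 5.32 (anaphase NT), 1.43 to 2.23 (prometaphase NT), 2.32 (without blastomere NT 2) to 4.17 (without 1 and 3; blastomere NT) and 0.30 to 1.13 (oocyte NT). Counts of family and partner genes then ran from 9 to 16 (without anaphase NT 19) in anaphase NT, from 0 to 1 in prometaphase NT (1 without prometaphase NT 28 or 2-cell control 23) and from 0 to 7 in blastomere NT. Family and partner genes called in anaphase NT numbered 10, against 3 when only the compared groups were fitted; in blastomere NT 6, against 3 with no detection filter; and in oocyte NT 9, against 17 with 75th percentile scaling. Among single genes 42 calls were lost, most of them family genes in blastomere NT, and Anxa2 in 4-cell controls against MII oocytes also with series matrix values (adjusted p = 0.0551 by limma). The second probe of Epb41l3 passed in neither comparison of control embryos that called the gene. The fit with a single sample left in a group assumes that it varies like the others. Slide as a random block moved none of the counts or medians beyond these limits. No paired analysis was possible because the sample numbers in the labels are unique to one RNA and are shared by no groups. Levels near the lowest detected signal (per array, 4.47 to 6.53 log2 in version 1, 5.78 to 6.58 in version 2) have no order.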
